A study of Drosophila melanogaster with 2 samples.

Results

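Chromosome arm 2L is the left arm of the second chromosome of Drosophila melanogaster. Its contact domains were taken from a Hi-C map of Kc167 cells, a line derived from fly embryos. They are all 364 domains that the deposited list places on 2L, of 2126 domains in the whole list, and none was left out by a filter. Hi-C joins and sequences pieces of chromatin that lay close together in the nucleus, and a contact domain is a stretch that contacts itself more than its surroundings.

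The study holds 2 samples of 1 group, untreated Kc167 cells grown at 25 °C, described as independent biological replicates. Both were fixed with 1% paraformaldehyde and cut with DpnII, and their ends were ligated while the chromatin was held on beads. The lists of domains and loops come from both samples combined, so no value below has a spread between samples. The depth is unknown, as no contact counts were analysed here, and no test could be made. Kc167 is 1 long-cultured line, and the map averages over its cells. All positions are on build dm3, numbered from the telomere (low positions) to the centromere end, and domains are numbered 1 to 364 in that order.

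In flies, contact domains are known to follow the local state of the chromatin. Active genes tend to lie in short domains and at the borders between domains, while silent or Polycomb-bound chromatin often forms long domains. The sequence near a centromere is rich in repeats and heterochromatin, and reads from repeats are hard to place. Loops are pairs of distant positions, called anchors, with enriched contact, and in fly cells many are known to join sites bound by Polycomb proteins, which keep developmental genes silent. Genes were not placed on the domains here, since the gene table used for this work is on a later build than the files.

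Together the 364 domains spanned 17.9 Mb, which is 78.0% of the 23.0 Mb from the arm's first base to the last listed domain end. They ranged from 6 kb to 625 kb, with a median of 25 kb (exact order-statistic interval 21 to 27 kb) and quartiles at 13.5 and 50 kb. Such an interval treats the listed members as independent draws, although all on the arm were used, and covers no spread between samples. Length was spread very unevenly among the domains. The 48 domains over 100 kb were 13.2% of the domains and held 51.4% of the domain length, while the 158 of at most 20 kb were 43.4% of the domains. The 52 domains of up to 10 kb together spanned 439 kb, less than the longest domain alone.

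Of the 5 longest domains, a pair lay close together and the other 3 lay apart. The longest was domain 292, from 17500001 to 18125000, and close before it lay domain 290, 450 kb long, from 16915001 to 17365000. The next were domain 356 near the centromere end (355 kb, 21760001 to 22115000), domain 94 (340 kb, 4465001 to 4805000) and domain 228 (310 kb, 12110001 to 12420000). At the other extreme, 4 domains tied at 6 kb, from 7536001 to 7542000, 9996001 to 10002000, 10003501 to 10009500 and 14348501 to 14354500. Those at 9996001 and 10003501 were neighbours, 1.5 kb apart, and the 185 kb domain 202 began 0.5 kb after them. The arm's list opened with a 14.5 kb domain at 58501 to 73000 and closed with a 133 kb domain at 22852001 to 22985000.

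**Figure D1:**
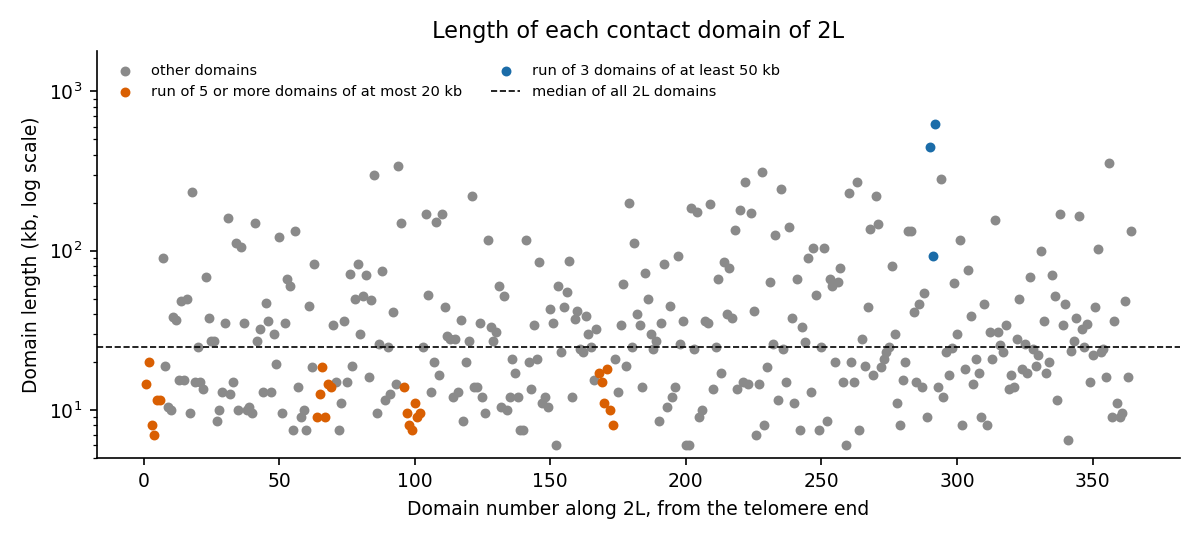
Each point is 1 contact domain of 2L, with its number along the arm on the x axis and its length in kb on a log scale on the y axis; the dashed line is the median of 25 kb, orange points are the 4 runs of short domains and blue points the run of 3 long ones. Long and short domains are found along the whole arm, and the orange runs all lie among the first 173 domains.

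Side by side with the other large arms, 2L had a median length of 25 kb against 19 kb on 2R, 21 kb on 3L, 21.5 kb on 3R and 22.5 kb on X. The share of domains over 100 kb was 13.2% on 2L, 7.22% on 2R, 12.04% on 3L, 11.6% on 3R and 11.7% on X, and the share of up to 10 kb was 14.3% against 15.1 to 17.6%. These are values of single pooled lists, and their differences were not tested.

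Domains were more numerous on the telomere side of the arm. Cut into 4 equal segments from the telomere, the arm held 111 and 109 domains in segments 1 and 2, and 70 and 74 in segments 3 and 4. The median length was 19 kb in segment 1, 26 kb in segment 2, 26.2 kb in segment 3 and 24.8 kb in segment 4. The 52 domains of up to 10 kb numbered 23, 13, 9 and 7 in these segments, while those over 100 kb numbered 13, 10, 16 and 9. The telomere end was thus the part with the most short domains, and segment 3 the part with the most long ones.

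In windows of 1 Mb the number of domains ranged from 3 to 24, with a median of 15 over 23 windows. The lowest number belonged to the window from 17000001 to 18000000, which was nearly filled by domains 290, 291 and 292 and had the highest coverage, 95.7%. The highest number, 24, came 2 windows later, from 19000001 to 20000000, where the median domain was 22.5 kb. The window from 11000001 to 12000000 held 9 domains with a median of 78 kb and none of up to 10 kb.

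**Figure D2:**
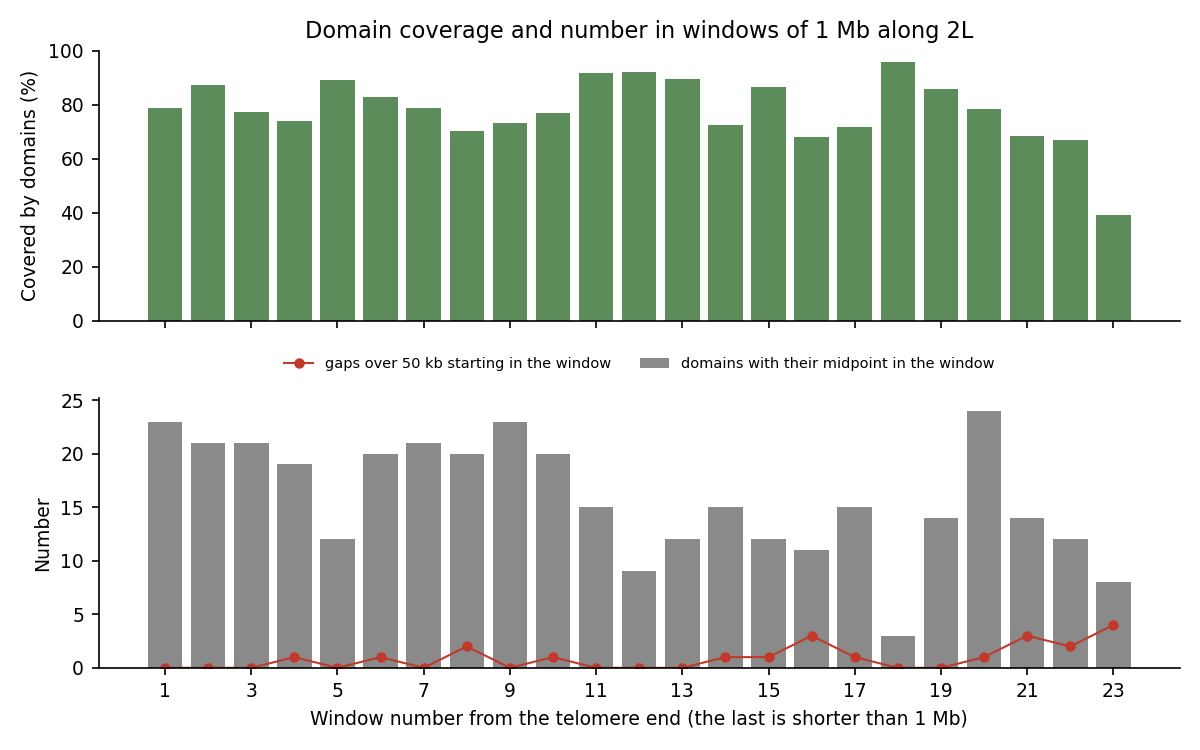
The upper bars give the percent of each 1 Mb window of 2L that domains cover, and in the lower panel bars give the number of domains with their midpoint in the window and red points the gaps over 50 kb that start there. Coverage is lowest in the last window, at 39.3%, which also holds 4 wide gaps, and highest in window 18, at 95.7%, with 3 domains.

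Coverage was lower at the centromere end than at the telomere end. Domains covered 53.5% of the last 2 Mb and 83.0% of the first 2 Mb. The last window, from 22000001 to 22985000, had 39.3% coverage, 8 domains and a median length of 13.5 kb. In the windows before it, coverage was 68.5% from 20000001 to 21000000 and 66.8% from 21000001 to 22000000. The only other window under 70% was the one from 15000001 to 16000000, with 67.8%. Placement of reads in repeats was not measured here, and its part in the coverage was not tested.

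Neighbouring domains mostly lay close together. The 363 gaps had a median of 4 kb (exact order-statistic interval 4 to 5 kb) and quartiles at 2 and 12 kb. Of them 21 were 0.5 kb, the smallest step of the grid on which domain ends lie, 104 (28.7%) were up to 2 kb and 204 (56.2%) up to 5 kb. On the other large arms 33.9 to 42.8% of gaps were up to 2 kb, again with no test. The median gap was 3.5 kb in segment 1, next to the telomere, and 4, 5 and 5.75 kb in segments 2, 3 and 4.

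A small number of gaps held much of the sequence outside domains. The 21 gaps over 50 kb were 5.79% of all gaps and summed to 2201 kb, or 44.1% of the 4989.5 kb of gap length. Of them 1 started in segment 1, 4 in segment 2, 6 in segment 3 and 10 in segment 4. Wide gaps thus gathered towards the centromere end.

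In the first 10 Mb there were 5 wide gaps. The widest of them was 135 kb, from 3160001 to 3295000. The others were 78 kb (5800001 to 5878000), 82 kb (7701001 to 7783000), 54.5 kb (7976001 to 8030500) and 69 kb (9426001 to 9495000). No gap over 50 kb followed until 13515001 to 13664000, which spanned 149 kb.

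In the window from 15000001 to 16000000, 3 wide gaps started close together and summed to 368.5 kb. They were 75.5 kb (15652001 to 15727500), 140 kb (15770001 to 15910000) and 153 kb (15933001 to 16086000), and they left 3 domains of 18.5, 21 and 23 kb between them. Other wide gaps in this region were 71 kb from 14620001 to 14691000 and 52 kb from 16490001 to 16542000. The last of these separated a pair of domains of equal length, 132 kb each.

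Near the centromere end gaps took up more of the sequence than before, with 6 wide gaps that summed to 859 kb and 12 domains after the first of them. The gap from 21416001 to 21630000 spanned 214 kb and the one from 21682001 to 21740000 spanned 58 kb. The 355 kb domain 356 and a group of 4 small ones of 9 to 36 kb followed. Beyond these, gaps of 163.5 kb (22191001 to 22354500), 62 kb (22364001 to 22426000), 108.5 kb (22474501 to 22583000) and 253 kb (22599001 to 22852000) left isolated domains of 9.5, 48.5 and 16 kb. Nearer the telomere, 4 more lay at 19651001 to 19740000 (89 kb), 20141001 to 20224000 (83 kb), 20294001 to 20350000 (56 kb) and 20870001 to 20925000 (55 kb).

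Short domains formed a few runs. A run was counted where 5 or more consecutive domains were at most 20 kb long, and there were 4, holding 25 of the 158 such domains. Domains this short were 43.4% of the arm's domains, and the number of runs that this share alone would give was not computed. The longest was a run of 7 domains of 7.5 to 14 kb, domains 96 to 102, from 4982001 to 5070000, directly after the 340 and 150 kb domains 94 and 95. The first run was at the very start of the list, domains 1 to 6 (58501 to 155000), with lengths of 7 to 20 kb and gaps of up to 19.5 kb.

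The remaining runs were domains 64 to 69 (2969501 to 3108000), with a median of 13.2 kb, and domains 168 to 173 (8365501 to 8488500), with a median of 13 kb. In these the widest inner gaps were 38 and 33.5 kb. The run of 7 was the tightest, with no inner gap over 8 kb. All 4 runs lay in the first 8.5 Mb, and no run was found beyond it.

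Long domains were a minority. With long defined as at least 50 kb (93 domains, 25.5%), 1 run of 3 was found. It was made of domains 290 to 292 and spanned 1210 kb from 16915001 to 18125000, with lengths of 450, 92 and 625 kb. Of the 363 neighbouring pairs, 3 joined 2 domains over 100 kb, a class of 48 of the 364 domains. The numbers of runs and pairs that these shares alone would give were not computed, so neither count is shown to be low or high. A median of 4 domains lay between one domain over 100 kb and the next. The longest stretch without one ran over 37 domains and 1.53 Mb, from 7182001 to 8709000, where lengths were 6 to 86 kb with a median of 23 kb.

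Most long domains had a short neighbour. Of the 47 domains over 100 kb with neighbours on both sides, 41 (87.2%) had at least 1 neighbour of at most 20 kb and 13 (27.7%) had 2. Of the 315 domains of up to 100 kb with neighbours on both sides, 199 (63.2%) had at least 1 and 60 (19.0%) had 2, so a short neighbour was common for any domain. The 78 neighbours that were not themselves over 100 kb had a median length of 16.5 kb, and all 316 domains of up to 100 kb had 20.5 kb. Neighbours differed by a median of 2.69-fold in length, and in 99 of 363 pairs by 5-fold or more. The most unequal pair was domain 289, 9 kb long (16879001 to 16888000), and the 450 kb domain 290 after it. Across all pairs the lengths of neighbours were nearly unrelated (Spearman rho = -0.09, n = 363 pairs that share domains), and on the other large arms rho was between -0.05 and 0.06.

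The list gives each domain scores of the authors' own, with no stated scale. The header's names are those of the domain caller in the Juicer package. There, score rates how likely a pixel is to be the corner of a domain, and uVarScore and lVarScore are the variances of the transformed map in an upper and a lower triangle of the map around the domain. No source used here says whether that caller was run. The scores come from the same map as the domains, so they describe the domains and are no separate support for them.

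The score had a median of 1.28 on 2L, quartiles at 1.09 and 1.47, and a range of 0.0464 to 1.90. The medians on the other large arms were 1.30 to 1.32. On 2L, 62 domains (17.0%) scored under 1 and 12 scored 1.8 or more. Higher scores went with higher upSign and loSign, further columns of the list (rho = 0.81 and 0.82, n = 364). No source used here says how the score is computed. It may be made in part from these columns or from the variance scores, and such relations may then be built in.

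Scores were lowest in the shortest domains and highest in the longest. The median score was 1.08 for the 52 domains of up to 10 kb, 1.29 for the 106 over 10 and up to 20 kb, 1.28 for the 117 over 20 and up to 50 kb, 1.24 for the 41 over 50 and up to 100 kb, and 1.49 for the 48 above. The score thus did not increase evenly with length, and the 3 middle classes were alike to within 0.05. Over all 364 domains rho was 0.39, and among those of up to 100 kb it was 0.24. On the other large arms rho was 0.34 to 0.52.

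**Figure D3:**
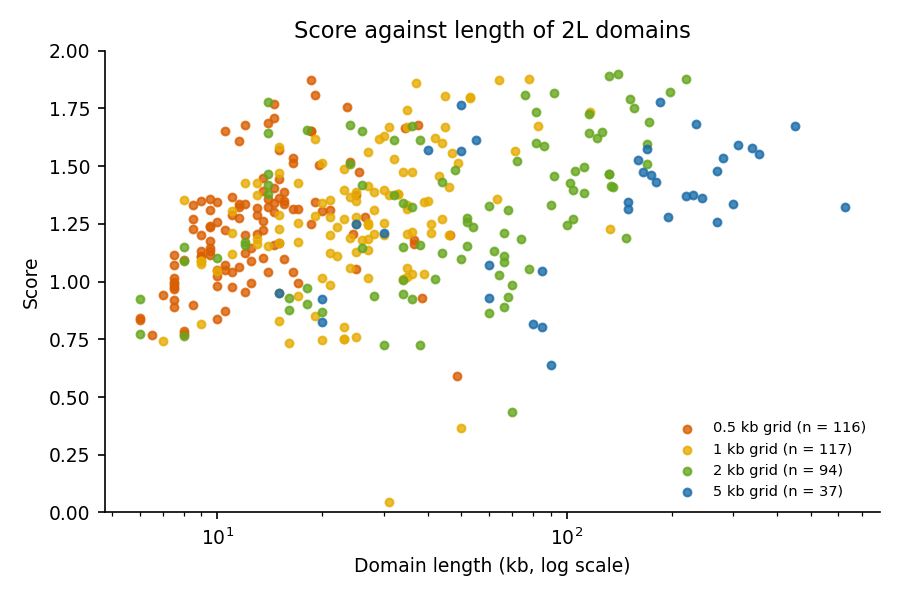
Each point is 1 of the 364 domains of 2L, with its length in kb on a log scale on the x axis and its score on the y axis; colours give the coarsest grid of 0.5, 1, 2 or 5 kb on which both domain ends lie. The shortest domains cluster near a score of 1, those over 100 kb near 1.49, and domains on the 5 kb grid make up most of the right edge.

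Domain ends lay on grids that moved with length. Both ends of 37 domains (10.2%) were multiples of 5 kb, and these domains had a median of 165 kb and held 35.8% of the domain length. The 116 domains with ends on the 0.5 kb grid and on no coarser one had a median of 12.2 kb. Their median scores were 1.37 and 1.23. None of the domains over 100 kb was among the latter, so the ends of long domains are placed less finely in the list. The part of the grid in the relation of score and length was not tested.

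The highest scores belonged to domains of mixed length. They were domain 238 (140 kb, 13022001 to 13162000, score 1.90), domain 282 (132 kb, 16358001 to 16490000, 1.89), domain 216 (78 kb, 11011001 to 11089000, 1.88), domain 121 (220 kb, 6102001 to 6322000, 1.88) and domain 272 (18.5 kb, 15727501 to 15746000, 1.87). The last of them lay between the first and second of the 3 wide gaps in the window from 15000001 to 16000000. Its score was thus near the top of the arm in a stretch where domains covered little of the sequence.

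The domains with the lowest scores had high variance scores, although over all 364 domains score was weakly higher where uVarScore (rho = 0.21) and lVarScore (rho = 0.22) were higher. Domain 312 (31 kb, 19133001 to 19164000) had a score of 0.0464, the lowest on the arm, with a uVarScore of 0.428 and an lVarScore of 0.397. The medians of these 2 scores over the arm were 0.0477 and 0.0446. Domain 323 (50 kb, 19601001 to 19651000) followed with a score of 0.364, a uVarScore of 0.318 and an lVarScore of 0.394.

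The next were domain 335 (70 kb, 20224001 to 20294000, score 0.435), domain 362 (48.5 kb, 22426001 to 22474500, 0.591) and domain 245 (90 kb, 13410001 to 13500000, 0.639). Domain 362 had the highest lVarScore of the arm, 0.417. In uVarScore, domain 312 was followed by the last domain of the arm, domain 364, with 0.379 and a score of 1.23, and then by domain 335, with 0.378. Of these 6 domains, 5 lay in segment 4, which held 74 of the 364 domains. Domains 323, 335, 362 and 364 each bordered a gap of 83 kb or more. Over the arm, 37 of 364 domains lay beside a gap over 50 kb. Domain 312 had gaps of only 1 kb on both sides.

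The pair of variance scores tracked each other loosely within a domain (rho = 0.41, n = 364) and little with length (rho = 0.07 for uVarScore and 0.15 for lVarScore). Neither was the larger one more often, with uVarScore above lVarScore in 179 domains and below it in 185. They were 2-fold or more apart in 77 domains (21.2%) and 5-fold or more in 9. The most unequal was domain 24 (38 kb, 1008001 to 1046000), with a uVarScore of 0.191 and an lVarScore of 0.00537, the lowest on the arm. The most unequal the other way was domain 46 (36 kb, 2050001 to 2086000), with 0.0230 and 0.171.

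Here uVarScore was taken to belong to the start side of a domain and lVarScore to its end side. No source used here states this. On that reading, scores that face each other across a gap were weakly related over all neighbouring pairs. The lVarScore of a domain went with the uVarScore of the next domain (rho = 0.27, n = 363 pairs), while the uVarScore of a domain and the lVarScore of the next were nearly unrelated (rho = 0.07). Gap width itself was weakly related to uVarScore for the gap before (rho = 0.15) and to lVarScore for the gap after (rho = 0.15). The relation of facing scores was present both across gaps of up to 5 kb (rho = 0.24, n = 204) and across wider ones (rho = 0.28, n = 159). The other large arms had the same order, with rho of 0.32 to 0.36 for the facing scores and 0.00068 to 0.0638 for the others. These are descriptions over pairs that share domains and 1 map. Facing scores may also draw on some of the same contacts, and the part of this in their relation was not tested.

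Single borders differed in this. Domain 11 (307001 to 345500) had an lVarScore of 0.281, and domain 12, which lay 20 kb further on (365501 to 402000), had a uVarScore of 0.233, while their outward-facing scores were 0.0861 and 0.0630. Domain 23 (906001 to 974000) had an lVarScore of 0.210 and faced the uVarScore of 0.191 of domain 24 across 34 kb. Of the 12 variance scores of 0.2 or more that face another domain, 6 faced a score of at least 0.1 and 6 a lower one, of 0.0220 to 0.0773. The border of domains 11 and 12 was counted from both sides. Over the arm the upper quartiles were 0.0649 for uVarScore and 0.0679 for lVarScore, so a score of at least 0.1 was uncommon. Its share of all scores was not computed. Among the 6 that faced a lower score, the uVarScore of 0.428 of domain 312 faced an lVarScore of 0.0471. That of 0.379 of domain 364 faced one of 0.0220.

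Beside wide gaps the medians were higher on the side of the gap, with the sides taken as above. The 21 domains just before a gap over 50 kb had a median lVarScore of 0.0748 and uVarScore of 0.0457. The 21 domains just after one had a median uVarScore of 0.0632 and lVarScore of 0.0542. The 327 domains beside no such gap had medians of 0.0477 for uVarScore and 0.0435 for lVarScore.

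One stretch of 2L stood out by the number of its consecutive domains with low variance scores, and its scores were low as well. In domains 253 to 259, from 14026001 to 14354500, 7 in a row had both variance scores under 0.03, a bound chosen after the values were seen. Over the arm 39 domains (10.7%) were under it. In the 7 domains uVarScore was 0.00986 to 0.0225, lVarScore 0.0125 to 0.0272 and score 0.748 to 1.06, with a median score of 0.865. Their lengths were 6 to 78 kb, with a median of 60 kb, against 25 kb over the arm.

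Around this stretch the values were mixed. The 10 domains before it had medians of 1.27 for score, 0.0630 for uVarScore and 0.0580 for lVarScore, but in the nearest of them, domains 251 and 252, lVarScore was already low at 0.0232 and 0.0254, with uVarScores of 0.0659 and 0.0581. The next domains, 260 (230 kb, 14365001 to 14595000) and 261 (20 kb, 14600001 to 14620000), still had low uVarScores of 0.0178 and 0.0183, with scores of 1.38 and 0.924. After them came a 71 kb gap, and the 10 domains beyond it had medians of 1.39 for score, 0.0622 for uVarScore and 0.0552 for lVarScore. The window from 14000001 to 15000000 had the lowest median of the 23 windows in each of the 3 scores, 0.977, 0.0192 and 0.0215.

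On the other arms the longest series of domains with both variance scores under 0.03 was 3, on 2R, 3L and 3R. On 2L series of 3 also lay at 94501 to 143000 and 1050001 to 1116500. No test was made of these lengths, and read depth or copy number in the stretch was not measured here.

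**Figure D4:**
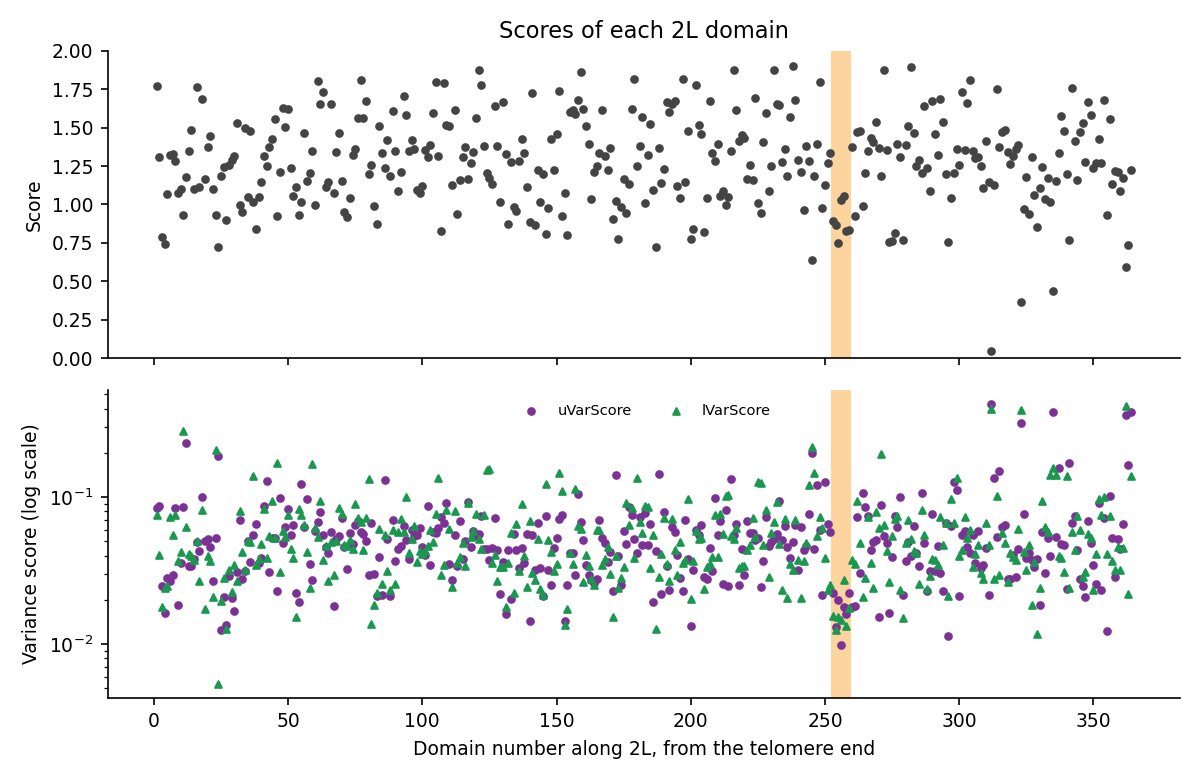
Points give the score (upper panel) and the uVarScore and lVarScore (lower panel, log scale) of each 2L domain by its number along the arm, and the shaded band marks domains 253 to 259. Within the band all variance scores lie under 0.03 and no score exceeds 1.06, and the lowest score of the arm is that of domain 312.

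The list of loops holds 24 on 2L, with 36 distinct anchors after overlapping ones were merged. Of these anchors 26 took part in 1 loop, 8 in 2 and 2 in 3. They were placed on the domains by their midpoints, and 30 lay inside a domain and 6 between domains. Domains covered 78.0% of the arm, so most positions of any kind lie inside one. Both anchors were in the same domain for 16 of 24 loops, or 66.7% (exact Clopper-Pearson interval 44.7 to 84.4%, covering counting error only, with loops that share anchors).

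Few domains held loops, and those that did were mostly long. The 16 loops lay in 10 of 364 domains, with lengths of 30 to 355 kb and a median of 129 kb, and the other 354 had a median of 24 kb. A whole loop was found in 7 of 48 domains over 100 kb and in 3 of 316 shorter ones, which have less room for one. Neither of the 2 longest domains of the arm held a loop. The 10 domains had a median score of 1.51, against 1.27 in the others, and their length goes with a higher score.

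**Figure D5:**
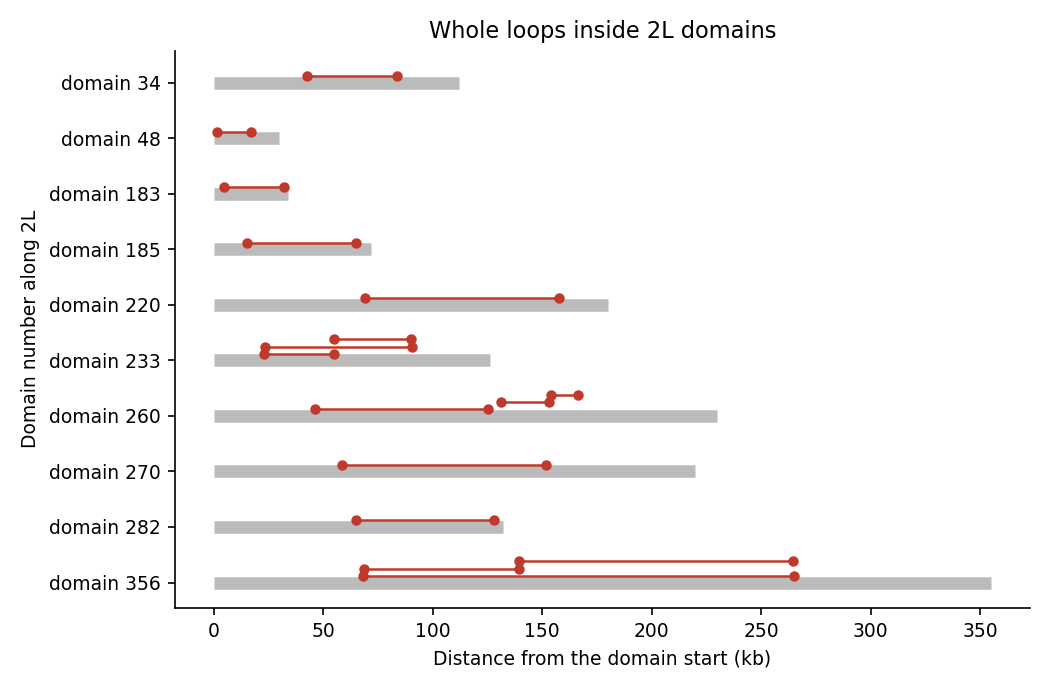
Grey bars are the 10 domains of 2L that hold a whole loop, drawn from their start at 0 kb, and red lines join the anchor midpoints of each of the 16 loops. Domains 233, 260 and 356 hold 3 loops each, and the loops span from 5.43 to 80.9% of their domain.

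Loops inside domains reached over 5.43 to 80.9% of the domain, with a median of 39.5%. The first anchor lay a median of 56.8 kb from the domain start and the second a median of 49.7 kb from the domain end. This describes the loops chosen for lying inside 1 domain. Of all 36 distinct anchors, 13 lay within 5 kb of a domain end. The share of the arm that lies this close to a domain end was not computed, so the count has no background beside it.

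Domains 233, 260 and 356 held 3 loops each. In domain 233 (126 kb, 12564001 to 12690000) the anchors 12586001 to 12589001, 12617001 to 12621001 and 12653001 to 12656001 were joined in all 3 pairs, with spans of 32, 35 and 67 kb. In domain 356, anchors at 21827501 to 21829001, 21899001 to 21900001 and 22024001 to 22025501 were likewise joined in all 3 pairs, over 71, 125 and 197 kb. Both sets lay entirely in 1 domain, and domain 356 was the only domain of the last 5 Mb with a loop.

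Domain 260, right after the stretch of low scores, was the busiest place of the arm. The loops inside it joined 14408501 to 14413501 with 14488501 to 14492001 (79.2 kb), 14495001 to 14497001 with 14517001 to 14519001 (22 kb), and 14518001 to 14520001 with 14530001 to 14533001 (12.5 kb). A further 3 loops ran from the anchors near 14495001, 14517001 and 14529001 to 1 anchor at 14598001 to 14601001, over 103.5, 81.5 and 69 kb. That anchor lay in the 5 kb gap between domains 260 and 261. Hence 6 of the arm's 24 loops had an anchor in domain 260, and 4 anchors, from the one at 14495001 to the one in the gap, were joined in 5 of their 6 pairs.

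The other 7 loops inside a domain were single. They joined 1420001 to 1421001 with 1460501 to 1462501 (41 kb, in domain 34), 2161001 to 2164001 with 2177001 to 2179001 (15.5 kb, domain 48) and 9175001 to 9178001 with 9202001 to 9206001 (27.5 kb, domain 183). Next along the arm were 9270001 to 9272001 with 9320001 to 9322001 (50 kb, domain 185) and 11358501 to 11359501 with 11447001 to 11448501 (88.8 kb, domain 220). The last were 15332001 to 15335001 with 15425501 to 15428001 (93.2 kb, domain 270) and 16421001 to 16425001 with 16484001 to 16488001 (63 kb, domain 282). Domain 282 was also the domain with the second highest score, and the second anchor lay 4.0 kb before its end.

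In all, 4 loops framed a domain, with 1 anchor within 5 kb of its start and 1 within 5 kb of its end. The loop in domain 183, named above, was one of them and spanned 80.9% of a 34 kb domain. The others framed a 35 kb domain at 1632001 to 1667000 (anchors 1635501 to 1636501 and 1669001 to 1670001), domain 69 of 14 kb at 3094001 to 3108000 (3094501 to 3096001 and 3107501 to 3109001), and a 28 kb domain at 15009001 to 15037000 (15009001 to 15012001 and 15037001 to 15040001). All 4 framed domains were 14 to 35 kb long. Domain 69 was the last domain of a run of short ones, so 1 of these 4 loops lay in such a run.

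Of the 2 loops not yet described, 1 had its first anchor 1.5 kb before the start of domain 179 (198 kb, 8742001 to 8940000) and its second inside it, joining 8739001 to 8742001 with 8887001 to 8890001 over 148 kb. The other was the one long loop of the arm, 3108 kb, from 6354001 to 6362001 to 9462001 to 9470001. Both its anchors lay between domains, and 64 whole domains lay between them. Its second anchor was well inside the 69 kb gap at 9426001 to 9495000. It was the one loop of the arm with an anchor in a gap over 50 kb.

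Loop ends were unevenly spread along the arm, with an anchor counted once for each of its loops. Of the 48 loop ends, 24 fell in segment 3, 8 in segment 1, 10 in segment 2 and 6 in segment 4. The longest stretch with no anchor ran over 5339.5 kb, from 16488001 to 21827501. It held 73 whole domains, among them 9 over 100 kb, and both of the longest domains. The next such stretches were 3245 kb from 3109001 to 6354001, with 53 whole domains, and 2377 kb from 6362001 to 8739001, with 55. No source used here says by what rule loops were listed, so a stretch with no listed loop is not shown to lack loops.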

How the data were processed

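Kc167 cells were assayed by tethered Hi-C. Per the submitters' processing notes, BWA and Juicer were used on build dm3 (BDGP5). Their versions and settings, and how domains and loops were called, are not given in these sources. The deposited lists hold positions in bp and, for each domain, a score, uVarScore, lVarScore, upSign and loSign, which the authors computed on a scale they do not state.

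The 2L rows were sorted by start. Length is the listed end minus the listed start, a gap the distance to the next domain, and starts are printed as the listed start plus 1. Loop anchors are printed as listed. Spearman's rho has no p-value, since domains are not replicates. The functions passed 6 of 6 checks on 364 simulated domains. Python 3.11.15, pandas 2.3.3 and SciPy 1.17.1 were used. Regions named in full were the 5 longest, the shortest, the 5 highest and 5 lowest by score, the 3 highest by each variance score, the first and last domain, all gaps over 50 kb, all runs and all loops. Other regions, such as the stretch of low variance scores, were chosen after their values were seen. The members and rules were chosen with earlier results of these data known. Both samples were pooled, so no replicate was left out. No sequence is printed, as no genome of build dm3 was used here.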

Additional observations from a re-analysis of the deposited data

How the results depend on the processing

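No paired analysis was possible because both samples were pooled before deposit. Of 30 alternatives, 13 kept a median or share within its interval or a count within 1.5 times. The other 17 follow; coverage and correlations have no interval, so every change of theirs is given, however small. The median length was 34.5 kb in the upper 50% by score. Coverage of 78.0% became 78.2% from the first to the last domain and 50.1% without domains on the 5 kb grid. The centromere end was covered by 40.2% in 1 Mb and 58.5% in 3 Mb, and the telomere end by 78.7 and 81.1%, so the order of the ends held at each width. Wide gaps numbered 44 over 30 kb and 8 over 100 kb. Runs of short domains fell from 4 to 1 at a bound of 15 kb, and runs of long ones went from 1 to 4 at 40 kb, so the number of runs depends on the bound. The correlation of neighbouring lengths, -0.085, was -0.090 without wide gaps and 0.066 for the domain after the next, a different pair of domains. In domains up to 100 kb the correlation with length was 0.24 for score, 0.0028 for uVarScore and 0.14 for lVarScore. The longest series of domains with low variance scores, 7, was 4 with both under 0.025, 7 under 0.035 and 9 under 0.04, against at most 5 on the other arms at these bounds, which were chosen after seeing the data. The causes of these changes were not tested beyond what each alternative leaves out. Depth could not be assessed.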
